A study of Mus musculus with 24 samples.

Results

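Chst1, Chst2, Chst3, Chst7, Chst11, Chst12, Chst14 and Chst15 encode Golgi sulfotransferases of the carbohydrate sulfotransferase family. These 8 genes, of the 19880 genes in the deposited table, were picked by symbol, and the set was chosen because Chst12 fell strongly under the proteasome inhibitor MG132. The values of Chst12 under MG132 and under DMSO, both arms of that contrast, are therefore given as a description with no test. A filter of at least 1 TPM (length-normalized transcript abundance scaled to the same total in every library) in at least 3 of the 24 libraries was passed by 7 of the 8, and Chst3 did not pass.

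The study asked how fibroblasts in different cell-states respond to proteasome inhibition. Fibroblasts came from the tails of 4 week-old male mice (strain label C57/Bl6), and all cell-states were derived from a common pool of cells. Proliferating cultures were kept subconfluent, senescent cultures were passaged until they stopped expanding and then rested for at least 7 days, quiescent cultures were held at confluence, and immortalized cells had been given the SV40 T antigen, an inactivator of p53 and RB, with a retrovirus. For 8 h, each cell-state was exposed to MG132 at 10 µM or to its vehicle, DMSO at 0.1%, and 3 poly(A) RNA libraries were made in each of the 8 groups. The labels do not tie the 3 libraries of a group to separate mice, and the spread behind each p-value may therefore be technical.

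Chondroitin and dermatan sulfate are long sugar chains attached to matrix and cell surface proteins, and sulfate groups placed on them in the Golgi set which growth factors and matrix proteins they bind. Chst11 and Chst12 sulfate the 4-O position of N-acetylgalactosamine in chondroitin, and Chst14 does the same in dermatan sulfate, the form that predominates in skin. Chst3 and Chst7 sulfate the 6-O position, and Chst15 adds a 6-O sulfate to galactosamine that already carries one at 4-O. Chst1 and Chst2 act on other chains: Chst1 sulfates galactose in keratan sulfate, and Chst2 sulfates N-acetylglucosamine. In humans, loss of CHST14 causes a form of Ehlers-Danlos syndrome with fragile skin.

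The stress gene Hspa1a, a cytosolic HSP70, was at 4.87 to 110 TPM in the 12 DMSO libraries and 326 to 15947 TPM in the 12 MG132 libraries, with no overlap. Mki67, a gene of dividing cells, was at 6.27 to 20.2 TPM in quiescent and 2.11 to 17.8 TPM in proliferating DMSO libraries, so it did not set the quiescent cultures apart, and at 0.375 to 1.56 TPM in senescent ones. Cdkn1a was at 1021 to 1319 TPM in senescent and 1174 to 1416 TPM in quiescent DMSO libraries, so it did not set the senescent cultures apart. Lmnb1 was at 4.32 to 9.02 TPM in senescent and 9.55 to 24.2 TPM in proliferating DMSO libraries. All 10 fibroblast markers examined reached 1 TPM in at least 1 library, with a summed level of 12858 to 33865 TPM per library. In proliferating MG132 and both immortalized groups 9 did, with Lum at or below 0.228 TPM. Dcn was also low in immortalized cells, at a mean of 0.806 TPM under DMSO and 0.606 TPM under MG132. Marker sums of other cell types ran from 0.191 TPM (skeletal muscle) to 98.6 TPM (leukocyte and macrophage, from Cd68, Lyz2 and Csf1r), and some moved with MG132. The summed leukocyte and macrophage markers, of which 3 of 5 reached 1 TPM in any library, went from 22.1 to 35.2 TPM under DMSO to 79.7 to 98.6 TPM under MG132 in senescent cells. The chondrocyte sum went from 8.07 to 11.2 TPM to 39.3 to 57.5 TPM in immortalized cells. In proliferating cells it went from 7.62 to 9.61 TPM to 30.0 to 36.1 TPM. Of its 5 genes 3 reached 1 TPM in any library, and 1 in immortalized MG132 libraries. The rise was mostly Sox9, from a mean of 8.14 to 46.9 TPM in immortalized and 5.07 to 30.8 TPM in proliferating cells. Col11a2 fell in both (0.768 to 0.326 and 2.30 to 0.886 TPM). Col2a1 went from 0.148 to 0.631 TPM in immortalized and from 1.07 to 1.03 TPM in proliferating cells. The part of these markers in the MG132 results below was not tested. In 23 of 24 libraries the most similar library came from the same group, the exception being proliferating DMSO replicate 3. TPM is a level per transcript length, so levels of different genes can be compared. Differences between groups are on a log2(TPM + 1) scale after dividing each library by a median-of-ratios size factor, so 0 means a change like that of the median gene. In bulk RNA, fewer cells of a type and less RNA per cell cannot be told apart.

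Chst12 (ENSMUSG00000036599) lies on chromosome 5 at 140505550 to 140525724 of GRCm38 (+ strand). Its transcript with the longest coding sequence has 2 exons, with that whole sequence in 1 exon. Chst14 (ENSMUSG00000074916) lies on chromosome 2 at 118926496 to 118928585 (+ strand), and its transcript with the longest coding sequence has 1 exon. Chst11 (ENSMUSG00000034612) spans 210403 bases of chromosome 10, from 82985498 to 83195900 (+ strand). Chst15 overlaps an annotated transcript of Fgfr2 on the same strand, so reads could be split between them and its values are less certain. The promoter windows of 3 genes, Chst12, Chst14 and Chst11, are printed from RefSeq (GRCm38.p6), 250 bases before to 50 after the start. Chst12 and Chst14 were lower under MG132 in every cell-state. Chst11 was lower with them in senescent cells but, after scaling, higher in quiescent and immortalized cells. Capitals mark the GC box GGGCGG and the CCAAT box, on either strand.
Chst12, chr5:140505359-140505658, + strand: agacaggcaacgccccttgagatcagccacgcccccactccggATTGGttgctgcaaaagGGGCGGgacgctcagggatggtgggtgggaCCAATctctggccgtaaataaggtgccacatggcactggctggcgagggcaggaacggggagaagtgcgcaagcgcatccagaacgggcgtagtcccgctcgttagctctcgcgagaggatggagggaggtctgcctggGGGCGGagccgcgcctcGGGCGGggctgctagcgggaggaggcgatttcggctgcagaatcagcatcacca
Chst14, chr2:118926247-118926546, + strand: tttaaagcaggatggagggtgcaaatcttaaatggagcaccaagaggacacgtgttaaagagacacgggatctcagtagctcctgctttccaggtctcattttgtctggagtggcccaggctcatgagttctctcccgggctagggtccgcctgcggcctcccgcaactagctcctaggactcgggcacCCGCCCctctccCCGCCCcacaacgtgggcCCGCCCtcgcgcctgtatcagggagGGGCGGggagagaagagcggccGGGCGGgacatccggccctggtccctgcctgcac
Chst11, chr10:82985247-82985546, + strand: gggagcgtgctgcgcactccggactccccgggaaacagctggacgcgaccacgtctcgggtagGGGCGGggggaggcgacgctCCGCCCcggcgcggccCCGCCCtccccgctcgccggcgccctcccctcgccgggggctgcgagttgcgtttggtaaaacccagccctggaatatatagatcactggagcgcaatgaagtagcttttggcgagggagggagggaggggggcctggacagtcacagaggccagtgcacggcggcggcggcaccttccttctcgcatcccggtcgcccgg
The GC box was found 3 times in the Chst12 window, 5 times in that of Chst14 and 3 times in that of Chst11, and 35.7% of all 32851 windows hold it on either strand. The CCAAT box was found 2 times in the Chst12 window and in neither of the other two, against 37.4% of all windows. TATAAA (13.6% of windows), TGACGTCA (1.79%), the heat shock element, searched as 3 alternating GAA units spaced by 2 bases (0.603%), and ACGTGGC (2.58%) were found in no window of the 8 genes, and CACGTG (7.15%) only in that of Chst14. TGACNNNGC (12.4%) was found only in the windows of Chst15. These matches are a description of letters, with no measured binding.

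Across the 24 libraries, Chst11 had the highest median level of the 8 genes (69.4 TPM, range 42.3 to 245), followed by Chst12 (30.1 TPM, 1.66 to 85.2) and Chst14 (26.3 TPM, 3.43 to 61.1). Chst7 (7.27 TPM), Chst1 (5.98 TPM) and Chst2 (3.91 TPM) formed a lower tier, with overlapping ranges. Chst15 had a median of 0.562 TPM and reached 1 TPM in 5 libraries. Chst3 stayed at or below 0.315 TPM and was at 0 in 1 library. The 4-O enzymes Chst11, Chst12 and Chst14 together made 82.6% to 94.4% of the summed TPM of the 8 genes in the DMSO libraries.

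**Figure D1:**
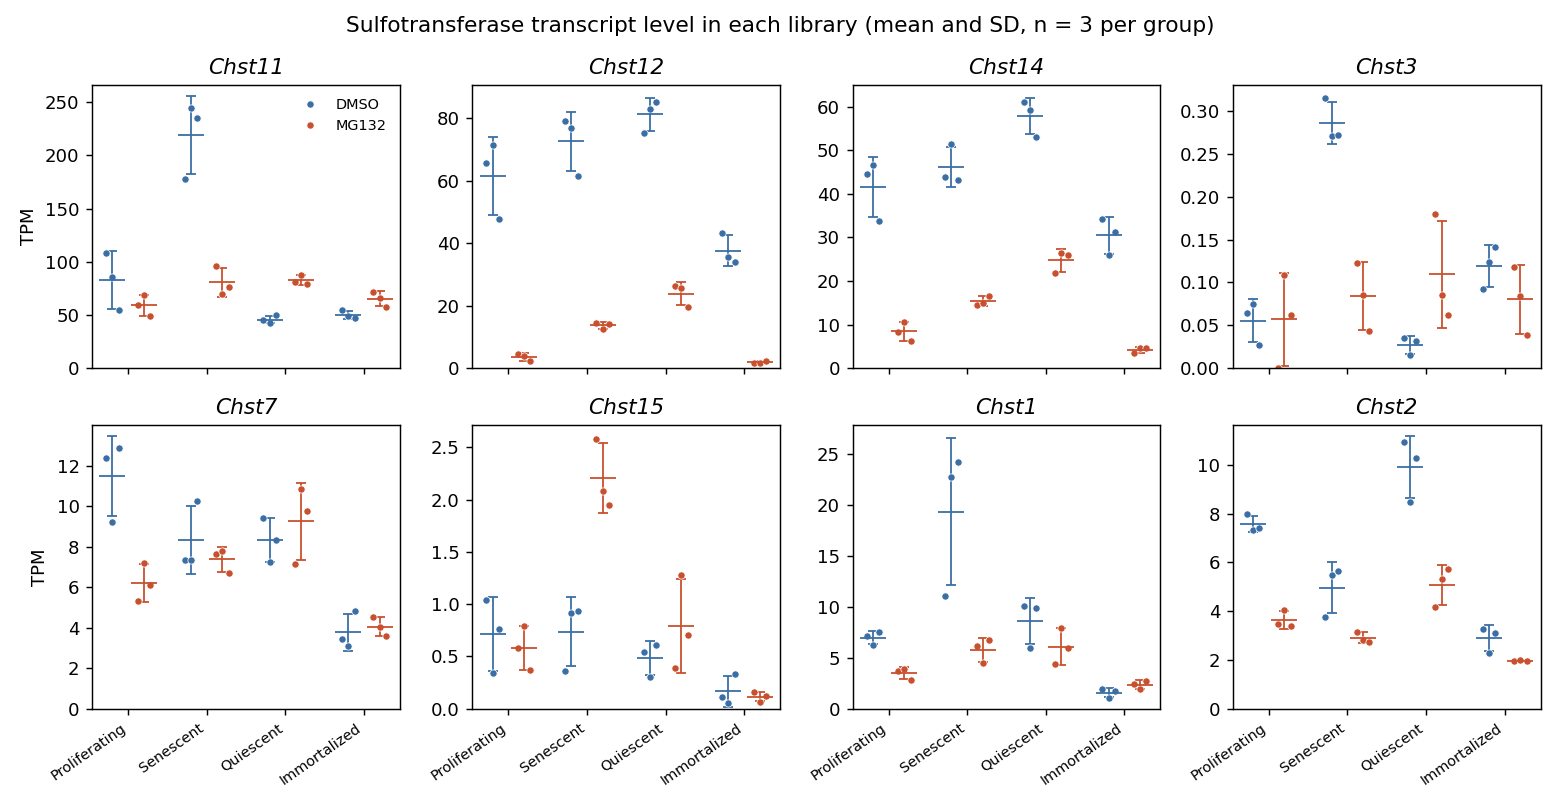
TPM of each of the 8 genes (vertical axis, linear from 0, own scale per gene) in the 24 libraries by cell-state, DMSO in blue and MG132 in orange. Points are libraries, and bars are the mean and SD of 3. Chst12 and Chst14 were lower under MG132 in all 4 cell-states, whereas Chst11 was lower in senescent cells and higher in quiescent and immortalized cells.

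Chst12, a chondroitin 4-O-sulfotransferase, was chosen for its fall. In proliferating cells it was at 65.7, 71.4 and 47.6 TPM under DMSO and 4.67, 3.83 and 2.17 TPM under MG132. In senescent cells the values were 79.1, 76.9 and 61.6 TPM against 14.6, 12.6 and 14.1 TPM. In quiescent cells they were 75.4, 83.0 and 85.2 TPM against 26.2, 25.8 and 19.7 TPM. The groups did not overlap in any of these cell-states, and quiescent cells kept the highest level under MG132. In immortalized cells Chst12 was at 43.3, 35.6 and 34.0 TPM under DMSO and 1.66, 1.77 and 2.36 TPM under MG132, again with no overlap. The MG132 mean was 5.78% of the DMSO mean for proliferating cells, 18.98% for senescent, 29.4% for quiescent and 5.12% for immortalized. The fitted log2 differences were -3.30, -2.28, -1.55 and -3.14 in that order (SE 0.19 each), which placed Chst12 at the 3rd, 71st, 368th and 3rd lowest of 13489 genes. They follow scaling and the addition of 1 to TPM, so they differ from the ratios of the means. With 5 added in place of 1, the immortalized value was -2.29, and on TPM as deposited it was -3.72. The smallest unit of the Chst12 TPM values was inferred as a step of which they are whole multiples. If the table was made as the study's methods describe, it would stand for 1 spike-in normalized count. The unit was contained 49 to 2352 times in the Chst12 values, and the lowest of these, 49, was in immortalized cells under MG132.

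Chst14, the dermatan 4-O-sulfotransferase, fell under MG132 in all 4 cell-states. In proliferating cells it was at 44.6, 46.5 and 33.7 TPM under DMSO and 8.37, 10.7 and 6.34 TPM under MG132. In senescent cells it was at 43.9, 51.4 and 43.2 TPM against 14.5, 14.9 and 16.7 TPM, and in quiescent cells at 61.1, 59.3 and 53.1 TPM against 21.8, 26.5 and 25.9 TPM. In immortalized cells it was at 34.3, 26.0 and 31.2 TPM against 3.43, 4.58 and 4.68 TPM. Every DMSO library lay above every MG132 library of its cell-state. The log2 differences, with SE 0.15, were -1.63 for proliferating (limma, Benjamini-Hochberg adjusted p = 1.17e-07), -1.51 for senescent (adjusted p = 3.09e-07), -1.01 for quiescent (adjusted p = 2.5e-05) and -1.92 for immortalized cells (adjusted p = 4.23e-09).

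Chst11, the other chondroitin 4-O-sulfotransferase and the most abundant of the group, moved in different directions. In senescent cells it was at 177, 245 and 235 TPM under DMSO and 96.2, 69.6 and 76.3 TPM under MG132. In quiescent cells it was at 45.4, 42.3 and 49.6 TPM under DMSO and 80.8, 87.8 and 79.5 TPM under MG132. It thus fell in senescent cells (log2 difference -1.41, SE 0.16, limma adjusted p = 8.4e-07) and rose in quiescent cells (1.02, SE 0.16, limma adjusted p = 2.99e-05), with no overlap in either. In immortalized cells it was at 54.3, 49.5 and 47.1 TPM under DMSO and 71.96, 66.4 and 58.0 TPM under MG132, a rise of 1.13 (SE 0.16, limma adjusted p = 6.09e-06). That call was lost on TPM as deposited, where the difference was 0.37 (limma adjusted p = 0.0936). In proliferating cells the values overlapped, at 108, 86.1 and 54.5 TPM against 59.0, 69.1 and 49.0 TPM, and the difference of 0.15 did not pass (limma adjusted p = 0.456). On TPM as deposited it turned to -0.44 (limma adjusted p = 0.0477).

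Of the 6-O enzymes, Chst7 was at 3.42, 3.07 and 4.81 TPM in immortalized cells under DMSO and 4.53, 4.04 and 3.57 TPM under MG132. These values overlapped, and the scaled log2 difference of 0.73 (SE 0.16, limma adjusted p = 0.000841) fell to 0.096 on TPM as deposited, where it did not pass. In proliferating cells Chst7 was at 12.4, 9.22 and 12.9 TPM against 5.31, 7.20 and 6.11 TPM, with no overlap. The scaled log2 difference of -0.26 did not pass there (limma adjusted p = 0.205), whereas that on TPM as deposited, -0.79, did (limma adjusted p = 0.00071). Neither senescent (-0.13) nor quiescent cells (0.29) passed for Chst7. Chst15, which makes the disulfated unit, was at 0.358, 0.920 and 0.936 TPM in senescent cells under DMSO and 2.58, 2.09 and 1.95 TPM under MG132. The 3 MG132 libraries lay above the DMSO ones, and the log2 difference was 0.85 (SE 0.18). Of the 5 libraries in which Chst15 reached 1 TPM these are 3, and without them 2 remain, too few for the filter. Chst15 thus passed only through the group in which it was high, and no test is given for any MG132 comparison that uses senescent cells. Chst3 was at 0.315, 0.271 and 0.272 TPM in senescent DMSO libraries and between 0 and 0.180 TPM in all others, and it was not tested.

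Chst1, the keratan sulfate galactose sulfotransferase, was at 11.01, 22.7 and 24.1 TPM in senescent cells under DMSO and 6.11, 4.44 and 6.70 TPM under MG132. It fell there by 1.49 on the log2 scale (SE 0.23, limma adjusted p = 3.49e-05). In immortalized cells it was low, at 1.92, 1.08 and 1.68 TPM against 2.38, 1.88 and 2.74 TPM, with overlap. The scaled log2 difference of 0.94 there (SE 0.23, limma adjusted p = 0.00208) was 0.39 on TPM as deposited, which did not pass. In proliferating cells Chst1 passed only on TPM as deposited (-0.84, limma adjusted p = 0.00699) and with the fixed total undone (-0.80, limma adjusted p = 0.00908). Chst2 fell in proliferating (-0.40, SE 0.12, limma adjusted p = 0.0117), senescent (-0.56, limma adjusted p = 0.000978) and quiescent cells (-0.67, limma adjusted p = 0.00018). In immortalized cells Chst2 was at 3.27, 2.30 and 3.11 TPM under DMSO and 1.95, 1.98 and 1.96 TPM under MG132. The scaled difference of 0.17 did not pass, and on TPM as deposited it was -0.38 (limma adjusted p = 0.0251).

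Of the 6 genes tested other than Chst12 (5 in senescent cells, without Chst15), 0 rose and 2 fell in proliferating cells, where 49.9% of all genes tested were called in either direction. Senescent cells gave 0 rises and 4 falls (46.1% of all genes called). Quiescent cells gave 1 rise and 2 falls (52.2%), and immortalized cells 3 rises and 1 fall (53.3%). The set was chosen on this contrast, so nothing is read from these counts. Their median log2 difference was -0.31, -1.41, 0.0071 and 0.45 in that order, beside -0.021, -0.034, -0.023 and 0.011 over all genes. On TPM as deposited the median of all genes shifted to -0.48, -0.047, -0.18 and -0.57 in the same order, and 1131 genes were called higher and 7182 lower in proliferating cells, against 3397 and 3340 after scaling. In quiescent cells the split was 2419 and 4772 against 3409 and 3635, and in immortalized cells 1031 and 7626 against 3593 and 3593.

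**Figure D2:**
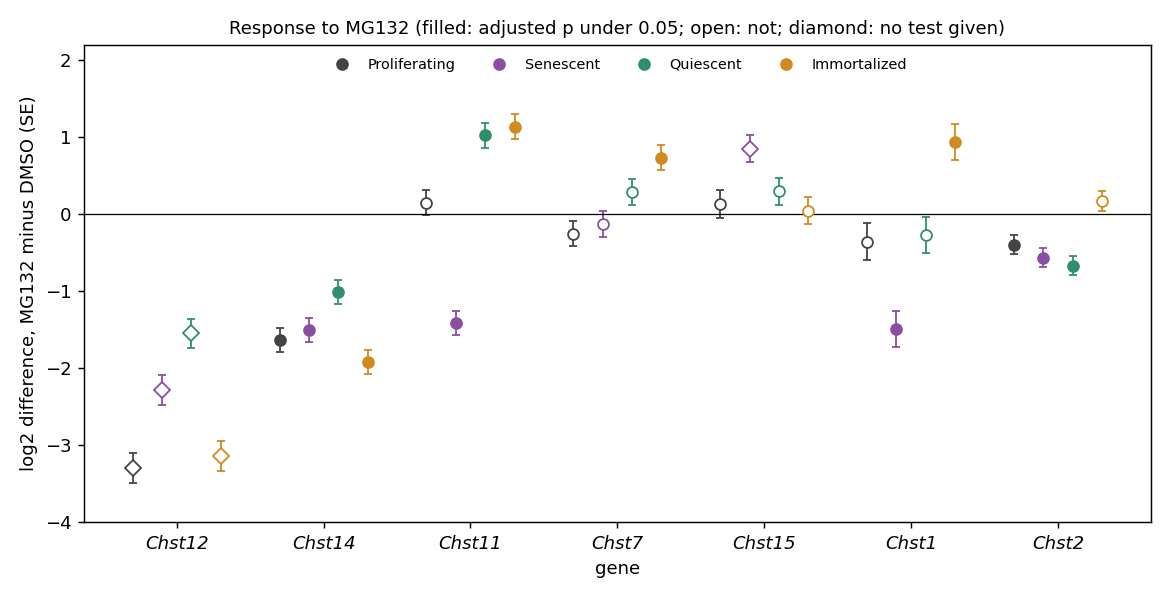
Log2 difference between MG132 and DMSO (vertical axis, ± SE) for the 7 genes that passed the filter, coloured by cell-state. Filled circles passed an adjusted p of 0.05, open circles did not, and diamonds mark values given without a test (Chst12, and Chst15 in senescent cells). Chst14 lay between -1.92 and -1.01 in the 4 cell-states, and Chst11 between -1.41 and 1.13, its proliferating value of 0.15 turning to -0.44 on TPM as deposited.

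The largest difference of response between cell-states was that of Chst11, with Chst1 close to it (2.43, SE 0.33, for immortalized minus senescent). The MG132 response of Chst11 was 2.55 higher on the log2 scale in immortalized than in senescent cells (SE 0.22, limma adjusted p = 3.85e-08), and 2.43 higher in quiescent than in senescent cells (limma adjusted p = 2.4e-07). Between quiescent and immortalized cells the difference was 0.11 (SE 0.22) and did not pass. The response of Chst14 was 0.91 lower in immortalized than in quiescent cells (SE 0.22, limma adjusted p = 0.0036), and no other pair passed for this gene after scaling. On TPM as deposited, however, its senescent minus proliferating (0.66, limma adjusted p = 0.0242), quiescent minus proliferating (0.99, limma adjusted p = 0.00299) and immortalized minus senescent differences (-1.06, limma adjusted p = 0.000499) passed as well. Of the 6 genes, or 5 where senescent cells enter, 1 to 4 passed per pair of cell-states. Senescent minus proliferating gave 2, beside 18.8% of all genes, quiescent minus proliferating 1 (13%) and immortalized minus proliferating 4 (11.6%). Quiescent minus senescent gave 2 (20.3%), immortalized minus senescent 4 (38.5%) and immortalized minus quiescent 3 (31.1%). These comparisons share DMSO and MG132 libraries, and the MG132 contrast is the one the set was chosen on.

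Under DMSO, 6 of the 7 genes that passed the filter had their lowest mean in immortalized cells, the exception being Chst11. All 6 genes with a test, Chst12 being left out, were lower in immortalized than in proliferating cells, where 35.7% of all genes were called in either direction and 17.7% lower. All 6 were also lower than in senescent cells (60.1% called, 30.8% lower), and 4 were lower than in quiescent cells (50.2% called, 25.1% lower), Chst11 and Chst15 being the exceptions. Of the 6, Chst15 passed the filter only through the senescent MG132 libraries. Its DMSO means were near the floor, at 0.165 TPM in immortalized, 0.713 TPM in proliferating and 0.738 TPM in senescent cells. Chst12 had a mean of 37.7 TPM in immortalized cells, 61.2% of that in proliferating, 51.9% of that in senescent and 46.4% of that in quiescent cells, with no overlap between libraries. Chst1 showed the widest gap, with a mean of 1.56 TPM ± 0.435 (SD, n = 3) in immortalized and 19.3 TPM ± 7.21 (SD, n = 3) in senescent cells. Its log2 difference was -2.80 (SE 0.23, limma adjusted p = 1.26e-08). The Chst14 difference between immortalized and proliferating cells, -0.43 (limma adjusted p = 0.0353), overlapped between libraries. It was lost without proliferating DMSO replicate 1 or 2 or immortalized DMSO replicate 2 or 3, with values from -0.42 to -0.35, with the fixed total undone (limma adjusted p = 0.0657) and with only the libraries compared (limma adjusted p = 0.0886). With only the libraries compared, that of Chst11 was lost too (-0.68, limma adjusted p = 0.0684). The Chst15 call against proliferating cells (-0.51, limma adjusted p = 0.0308) was lost without proliferating DMSO replicate 1 or 3 or immortalized DMSO replicate 1 or 2 (-0.48 to -0.40), and that against senescent cells (-0.49, limma adjusted p = 0.0211) without senescent DMSO replicate 2 or 3 or immortalized DMSO replicate 1 or 2 (-0.47 to -0.42). With a pseudocount of 5 in place of 1 in log2(TPM + 1), the Chst15 call against proliferating cells was also lost (-0.13, limma adjusted p = 0.0621). With 0.1 its difference from quiescent cells passed (-1.12, limma adjusted p = 0.0444).

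Senescent cells carried the most Chst11, with 219 TPM ± 36.4 (SD, n = 3) against 83.0 TPM ± 27.1 in proliferating cells. That is a log2 difference of 1.35 (SE 0.16, limma adjusted p = 1.59e-06). Chst1 was also higher there (1.19, limma adjusted p = 0.000471), whereas Chst2 (-0.60, limma adjusted p = 0.00072) and Chst7 (-0.49, limma adjusted p = 0.0215) were lower. So 4 of 6 genes passed, beside 40.8% of all genes. The Chst7 call was lost without proliferating DMSO replicate 1 or 3 or senescent DMSO replicate 1 or 2, where its difference ran from -0.48 to -0.38, and also on TPM as deposited (limma adjusted p = 0.0621), with the fixed total undone (-0.29, limma adjusted p = 0.19) and with only the libraries compared (limma adjusted p = 0.101).

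Quiescent cells carried less Chst11 than proliferating (-0.92, SE 0.16, limma adjusted p = 0.000216) and less than senescent cells (-2.26, SE 0.16, limma adjusted p = 1.37e-09). Against proliferating cells 2 of 6 genes passed, Chst11 and Chst7 (-0.53, limma adjusted p = 0.0195), beside 30.2% of all genes. The Chst7 call was lost without proliferating DMSO replicate 1 or 3 or quiescent DMSO replicate 2 or 3, with values from -0.51 to -0.41, on TPM as deposited (limma adjusted p = 0.0796) and with only the libraries compared (limma adjusted p = 0.0561). Chst14 passed instead on the deposited scale, higher in quiescent cells (0.48, limma adjusted p = 0.028). Against senescent cells 3 of 6 passed, Chst2 higher (0.82, limma adjusted p = 3.48e-05) and Chst1 (-1.06, limma adjusted p = 0.00138) and Chst11 lower, beside 39.1% of all genes. The order of Chst12 levels was quiescent (81.2 TPM ± 5.17), senescent (72.6 ± 9.54), proliferating (61.6 ± 12.4) and immortalized cells (37.7 ± 4.97; SD, n = 3 each). Neighbours among the first 3 overlapped, whereas quiescent (75.4 to 85.2 TPM) and proliferating libraries (47.6 to 71.4 TPM) did not.

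**Figure D3:**
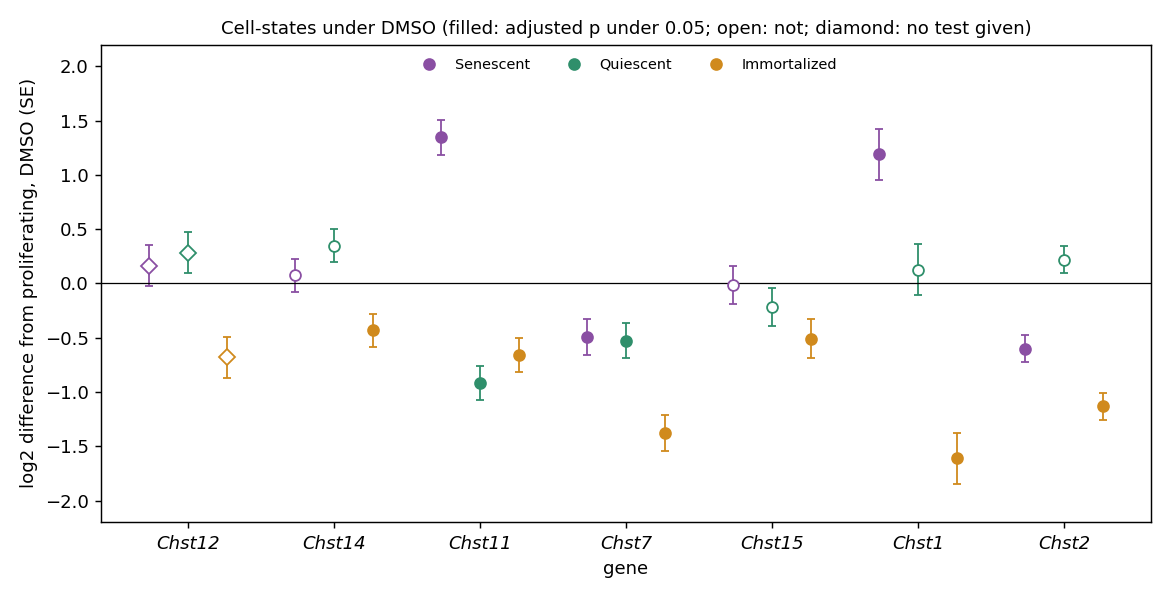
Log2 difference from proliferating cells under DMSO (vertical axis, ± SE) for 7 genes in senescent, quiescent and immortalized cells. Filled circles passed an adjusted p of 0.05, open circles did not, and diamonds mark Chst12, given without a test. All 7 immortalized points lie below 0, and Chst11 lay at 1.35 in senescent and -0.92 in quiescent cells.

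Ratios within a library do not depend on the scaling. The ratio of Chst12 to Chst11 TPM was 0.606, 0.829 and 0.874 in proliferating DMSO libraries and 0.0793, 0.0554 and 0.0443 under MG132. In quiescent cells it was 1.66, 1.96 and 1.72 under DMSO, the only group in which Chst12 exceeded Chst11, and 0.324, 0.294 and 0.248 under MG132. In immortalized cells it was 0.798, 0.719 and 0.722 against 0.0230, 0.0266 and 0.0407, and in senescent cells 0.446, 0.314 and 0.262 against 0.152, 0.181 and 0.185. Chst11 therefore made up 69.3% to 69.8% of the summed TPM of the 8 genes in proliferating MG132 libraries, against 33.1% to 43.8% under DMSO. In immortalized cells its share was 78.9% to 83.5% against 38.5% to 42.1%, and in quiescent cells 53.0% to 55.8% against 20.5% to 22.9%. In senescent cells the shares, 60.9% to 66.4% against 54.9% to 61.7%, overlapped.

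**Figure D4:**
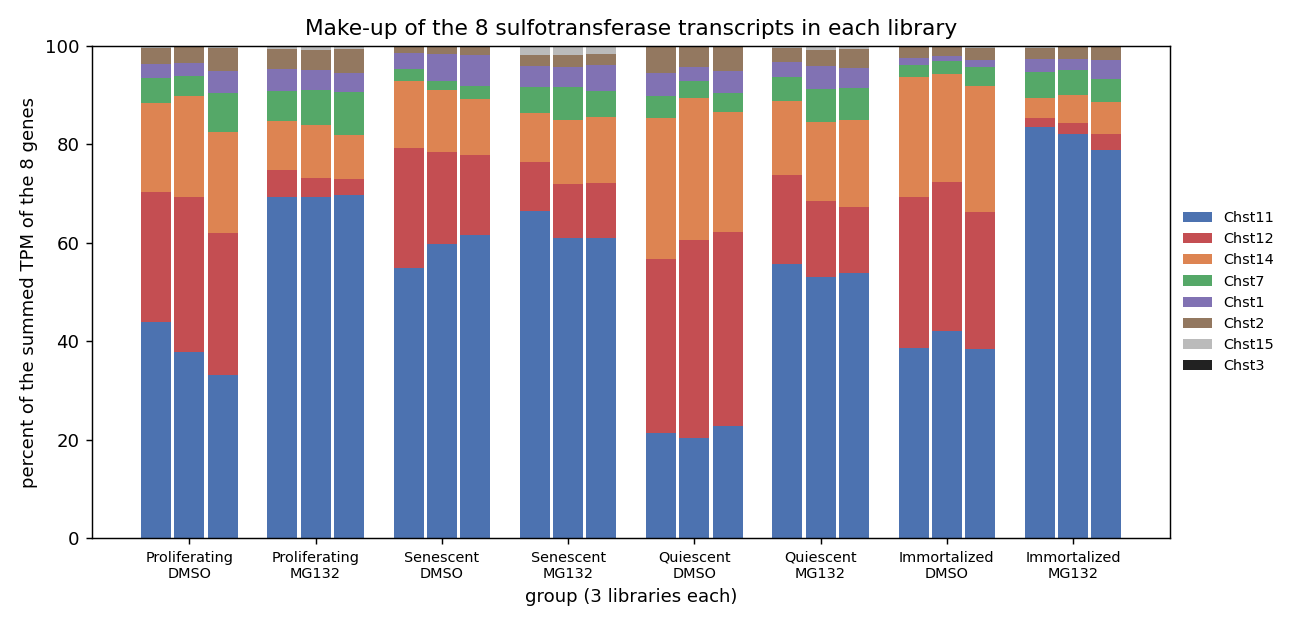
Share of each gene in the summed TPM of the 8 genes (vertical axis, percent), 1 bar per library, grouped by cell-state and treatment. The Chst12 share fell from between 27.8% and 30.8% under DMSO to between 1.92% and 3.21% under MG132 in immortalized cells.

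Chst14 was among the genes most like Chst12. Over the 24 libraries, on the log2 scale, the highest Pearson correlations with Chst12 among 10796 other genes of at least 5 TPM in 1 group were those of Ifngr2 (0.978), Chst14 (0.976), Pip4k2b (0.973), S1pr2 (0.972) and Hoxb7 (0.971). Ifngr2 is a chain of the interferon gamma receptor, S1pr2 a sphingosine phosphate receptor, Pip4k2b a lipid kinase and Hoxb7 a homeobox factor. The points share libraries and scaling, and the correlation largely follows the MG132 contrast on which Chst12 was chosen. For Chst14, Chst12 ranked 3rd. The other members were less alike: the nearest fellow of Chst1 was Chst7 (r = 0.586, rank 1229), that of Chst2 was Chst7 (0.636, rank 493), and that of Chst11 was Chst1 (0.568, rank 493).

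The genes that build the chondroitin and dermatan backbone, 15 in the list and all tested, gave 2 higher and 11 lower under MG132 in proliferating cells. Senescent cells gave 0 and 8, quiescent cells 2 and 7, and immortalized cells 4 and 8. Over all genes 49.9%, 46.1%, 52.2% and 53.3% were called in either direction. The list's median log2 difference was -0.82, -0.39, -0.24 and -0.47, beside -0.021, -0.034, -0.023 and 0.011 over all genes. Without the scaling, on TPM as deposited, the counts were 0 higher and 12 lower in proliferating and 1 and 10 in immortalized cells, with medians of -1.37 and -1.21, where the median of all genes was -0.48 and -0.57. Csgalnact1, which starts the chondroitin chain, fell in quiescent cells from 127 TPM ± 23.2 to 25.7 TPM ± 3.63 (SD, n = 3 each), a log2 difference of -2.07 (SE 0.18, limma adjusted p = 2.54e-08). Pxylp1, the phosphatase of the linker xylose, fell in senescent cells from 38.0 to 7.05 TPM (-2.24, SE 0.13, limma adjusted p = 1.9e-10). Xylt1, the xylosyltransferase that primes the chain, rose in immortalized cells (1.64, SE 0.25, limma adjusted p = 1.88e-05). Dse and Dsel, the epimerases that make the dermatan unit on which Chst14 acts, were singled out after their values were seen, so these are given with no test. The log2 differences of Dse were -1.15, -1.07, -0.81 and -0.97 and those of Dsel -1.31, -0.70, -1.23 and -1.496 in proliferating, senescent, quiescent and immortalized cells.

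Ust, the uronyl 2-O-sulfotransferase that acts on the same chains, went the other way. It rose in quiescent cells from 5.40 TPM ± 0.676 to 15.3 TPM ± 3.20 (SD, n = 3 each), a log2 difference of 1.48 (SE 0.14, limma adjusted p = 1.25e-07). In its list of other sulfotransferases 3 of 6 genes in the table were tested. The list of sulfate donor supply holds genes that supply the donor PAPS and also genes such as Bpnt1, which breaks down the by-product of sulfation. In this list 7 were tested, and 3, 3, 4 and 3 rose and 1 fell in each of the 4 cell-states. That is 4 or 5 of 7, beside the 46.1% to 53.3% of all genes called. Before scaling, in TPM as deposited, 0 rose and 2 fell in proliferating and 0 rose and 5 fell in immortalized cells, and the list's median turned from 0.21 to -0.37 and from 0.17 to -0.57 there. Papss1, a PAPS synthase, fell in quiescent cells from 43.5 to 16.8 TPM (-1.14, SE 0.15, limma adjusted p = 4.68e-06), and Slc35b3, a Golgi PAPS carrier, rose in senescent cells (0.87, SE 0.15, limma adjusted p = 9.65e-05).

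**Figure D5:**
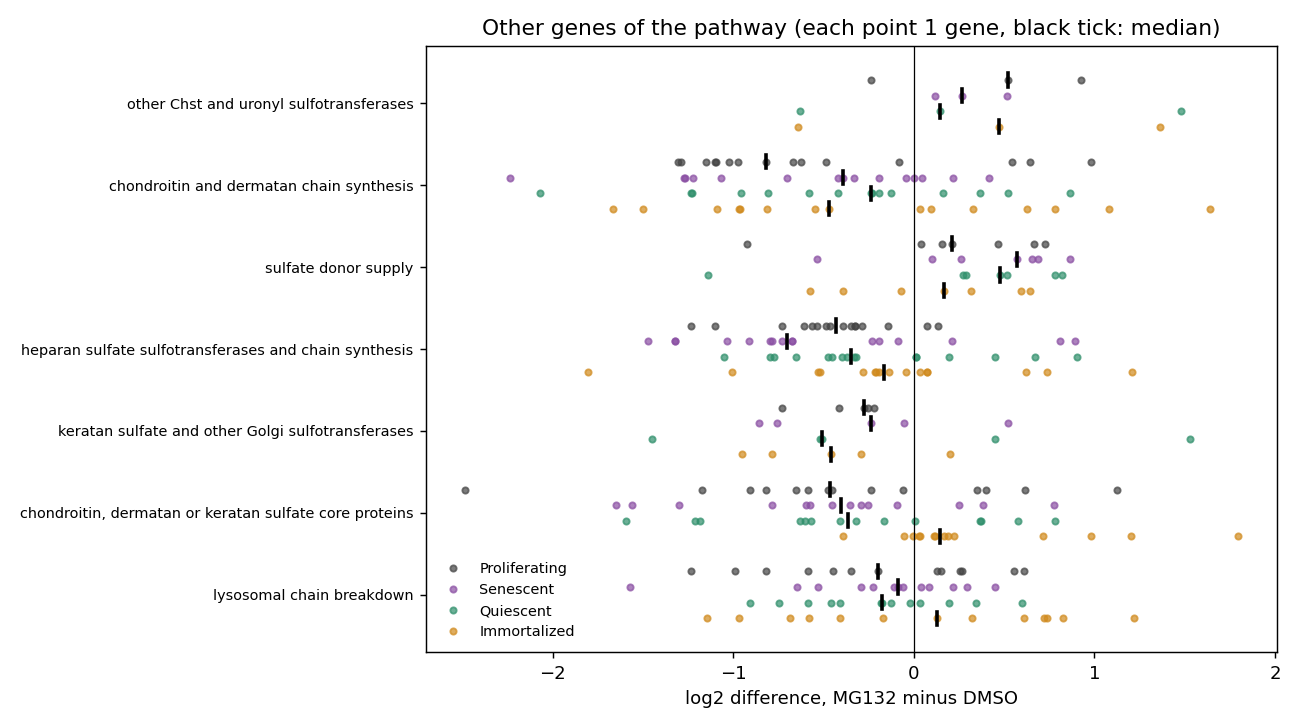
Log2 difference between MG132 and DMSO (horizontal axis) of the other genes of the pathway, 1 point per gene, by list and cell-state, with the median as a black tick. The medians of the chondroitin and dermatan chain list lie between -0.82 and -0.24, and those of sulfate donor supply between 0.17 and 0.57, turning to -0.37 in proliferating and -0.57 in immortalized cells on TPM as deposited.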

How the data were processed

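Poly(A) RNA of 24 libraries was read as paired ends of 140 bp. Per the study's methods the authors used Cutadapt for trimming, kallisto for mapping to GRCm38 transcripts and RUVg for normalizing counts to ERCC spike-ins. The submitters' notes name HISAT2 and StringTie instead, and it is unclear which gave this table. The authors deposited TPM: counts normalized to the spike-in and taken per length of gene, with 1 common total for all libraries. TPM keeps no sequencing depth, so no counting interval is given.

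Size factors came from the median of ratios over 13243 genes. With a pseudocount of 1, the log2 of scaled TPM entered limma 3.58.1 (R 4.3.3) with a mean-variance trend, all 8 groups in 1 model (16 residual degrees of freedom), over 13489 genes with at least 1 TPM in at least 3 libraries. The p-values were adjusted by Benjamini-Hochberg within each comparison, with calls under 0.05, and the test was checked on simulated data. Alternatives were a pseudocount of 0.1 or 5, a filter of 5 TPM or none, TPM as deposited, TPM with the fixed total undone, only the libraries compared, a replicate block, no trend, and each library left out. The members and gene lists were chosen with earlier results of these data known. Named genes are all 8 members, for each list and kind of comparison the 2 largest called rises and 2 largest falls at 5 TPM or more (of which examples are given), and the 5 genes most like Chst12. Hspa1a, Mki67, Cdkn1a and Lmnb1 were label checks, and Dse, Dsel and Sox9 were added after their values were seen. No test is given for Chst12, nor for Chst15 where senescent MG132 libraries enter; tests of these had been planned and were withheld because the choice of the gene or the filter used those values. Positions are from GENCODE M21. Python 3.11.15 with matplotlib 3.10.9 drew the figures.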

Additional observations from a re-analysis of the deposited data

Results flagged for a closer look

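The MG132 response of several of the 6 genes other than Chst12 differed between cell-states by the interaction term of the limma model, as log2 differences of response. Senescent minus proliferating was -1.14 for Chst1 (limma adjusted p = 0.0217) and -1.56 for Chst11 (adjusted p = 7.43e-05). Quiescent minus proliferating was 0.87 for Chst11 (limma adjusted p = 0.014). Immortalized minus proliferating was 1.30 for Chst1 (limma adjusted p = 0.0151), 0.57 for Chst2 (adjusted p = 0.0413), 0.99 for Chst7 (adjusted p = 0.00897) and 0.99 for Chst11 (adjusted p = 0.00757). Quiescent minus senescent was 1.22 for Chst1 (limma adjusted p = 0.0127) and 2.43 for Chst11 (adjusted p = 2.4e-07). Immortalized minus senescent was 2.43 for Chst1 (limma adjusted p = 1.01e-05), 0.73 for Chst2 (adjusted p = 0.00266), 0.86 for Chst7 (adjusted p = 0.00625) and 2.55 for Chst11 (adjusted p = 3.85e-08). Immortalized minus quiescent was 1.22 for Chst1 (limma adjusted p = 0.00871), 0.84 for Chst2 (adjusted p = 0.0012) and -0.91 for Chst14 (adjusted p = 0.0036).

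Several of these calls depended on the scaling. On TPM as deposited, the differences of Chst1 for senescent minus proliferating (-0.69) and immortalized minus quiescent (0.83), of Chst2 against proliferating, senescent and quiescent cells (0.51, 0.21 and 0.46) and of Chst7 for immortalized minus senescent (0.24) did not pass limma's test. Others passed on TPM as deposited and not after scaling, namely Chst7 for senescent minus proliferating (0.64, limma adjusted p = 0.0423) and quiescent minus proliferating (0.91, limma adjusted p = 0.0101), and Chst14 for these 2 pairs (0.66 and 0.99) and for immortalized minus senescent (-1.06). The quiescent minus proliferating pair of both genes and the last pair also passed with the fixed total undone (0.95, 1.03 and -0.91). Leaving out single libraries lost the Chst2 difference between immortalized and proliferating cells for 14 of 24 libraries (0.49 to 0.61), and that of Chst1 between senescent and proliferating cells without senescent DMSO replicate 2 or 3 or senescent MG132 replicate 2 (-1.01 to -0.98).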

How the results depend on the processing

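On TPM as deposited, 5 of 6 genes were called under MG132 in proliferating cells (2 after scaling) and 2 in immortalized cells (4 after scaling); with the fixed total undone the counts were 4 and 2. The Chst12 difference was then -3.80 and -3.75 in proliferating, -3.72 and -3.67 in immortalized and, as deposited, -1.73 in quiescent cells. A pseudocount of 5 gave -2.62, -1.98 and -2.29 in proliferating, senescent and immortalized cells, and 0.1 gave -3.48 in immortalized cells. Chst11 in proliferating cells (-0.44) and Chst2 in immortalized cells (-0.38) changed sign as deposited. With only the libraries compared, 1 gene was called for quiescent against proliferating and 3 of 6 for immortalized against proliferating cells (6 otherwise), and Chst12 in quiescent against senescent cells under DMSO (0.12) changed sign with the fixed total undone (-0.084) and ranged from -0.021 to 0.23 without single libraries. Leaving out single libraries gave 3 to 5 calls under MG132 in quiescent cells (5 without quiescent MG132 replicate 1, Chst7 and Chst15 being added) 1 to 2 for quiescent against proliferating cells, 4 to 6 for immortalized against proliferating and 5 to 6 for immortalized against senescent cells. Across the member differences with a test, 759 of 804 alternative values other than single left-out libraries kept their direction and side of the threshold. Whether replicate numbers pair the samples is not given in the labels. Deviations of same-numbered DMSO and MG132 libraries correlated at -0.66 to 0.40, which with 3 libraries per group cannot decide it. The replicate block changed no member call (2 genes called under MG132 in proliferating cells, 4 in senescent, 3 in quiescent and 4 in immortalized). TPM keeps no depth, which limits statements on Chst3 and Chst15.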

Other observations

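Genes of sulfated chain breakdown and core protein genes also differed between cell-states under DMSO. The breakdown list is not limited to the chains above: Sgsh and Naglu act on heparan sulfate, another sulfated chain, and Sumf1 activates sulfatases. Of the 13 genes in this list, 10 were higher and 0 lower in senescent than in proliferating cells. Over all genes 40.8% were called there and 21% were higher. The list had a median log2 difference of 0.87 beside -0.0056 over all genes. Ids, the iduronate sulfatase, was at 44.5 TPM ± 10.2 in senescent and 12.8 TPM ± 3.08 in proliferating cells (SD, n = 3 each), a log2 difference of 1.63 (SE 0.16, limma adjusted p = 1.39e-07). Against senescent cells, immortalized cells had 12 of the 13 lower and 0 higher (60.1% of all genes called, 30.8% lower), with a median of -1.03.

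Of 14 core proteins tested, 9 were lower and 0 higher in immortalized than in senescent cells, beside the same 30.8% of all genes lower. Dcn, which encodes decorin, a dermatan sulfate proteoglycan of skin, was at 0.806 TPM ± 0.589 in immortalized and 107 TPM ± 85.2 in senescent cells (SD, n = 3 each), a log2 difference of -5.35 (SE 0.60, limma adjusted p = 4.6e-07).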
